A study of Mus musculus with 81 samples.

Results

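MTD and MTE elements are long terminal repeat (LTR) elements of the mouse, and their RNA was examined here in germline and somatic cells of the fetal testis. The mouse endogenous retrovirus (mERV) tables listed 970384 LTR loci of the mm10 genome, and the 122722 loci whose species name begins with MTD or MTE were taken as members. The rule used the species name alone. Members made up 12.6% of the listed loci and covered 31.87 Mb, with a median length of 258 bases. They belonged to 11 mERV species. MTD was the most numerous with 51456 loci, followed by MTEa with 20015, MTE2a with 15132, MTE2b with 14356 and MTEb with 10779. The internal parts, named with the ending -int, were fewer, from 4955 loci of MTE-int and 2521 of MTD-int to 635 of MTEb-int.

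All animals were OG2 mice in a C57BL/6J background, which carry an EGFP transgene under regulatory sequences of Pou5f1 that are active in germline cells, and controls carried it as well. Pregnant F0 mothers drank water containing 50 nM tributyltin (TBT), an organotin compound, or the vehicle DMSO. F1 fetuses were thus exposed in utero, whereas F3 fetuses descended from matings within each exposure group with no further exposure. Testes of E18.5 fetuses were sorted by EGFP and side scatter into 2 EGFP-positive germline fractions, P4 and P5, and the EGFP-negative somatic fraction P6. RNA libraries numbered 5 F1-DMSO and 7 F1-TBT for P4, 4 and 7 for P5, and 5 and 7 for P6. For F3 there were 4 F3-DMSO and 5 F3-TBT libraries in each of the 3 fractions. Methylated DNA of P6, captured with a methyl-CpG-binding domain (MBD) protein, was sequenced in 3 F1-DMSO, 4 F1-TBT, 5 F3-DMSO and 7 F3-TBT libraries. The labels do not say that libraries of a group came from separate animals or litters, so a p-value here measures the spread between libraries. Labels of F1 germline libraries begin with a first number that most libraries of a fraction share with others. No first number occurs in both exposures, and TBT libraries fall under fewer of them than DMSO libraries. What the first number marks is not stated. The tests did not model it, and in F1 germline cells they cannot separate exposure from it. P4 and P5 differ by their side scatter gate, and the labels give them no cell state.

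MaLR elements are non-autonomous relatives of the ERVL class of endogenous retroviruses. Their LTRs carry a promoter and a polyadenylation signal, their internal part encodes no retroviral protein, and most copies are solitary LTRs left by recombination. Among the mouse-lineage MT families MTA is the youngest and MTD and MTE are older, and MT LTRs are known for serving as promoters and first exons in oocytes and early embryos. In the fetal male germline, retrotransposons are silenced by DNA methylation guided in part by piRNAs.

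The sequences of 8 loci around which the results turn are shown here, as the RefSeq plus strand of GRCm38.p6 with AATAAA, the polyadenylation signal, or its reverse complement TTTATT in capitals. The MTEa locus at chr9:99170793-99171006 held more reads than any other member outside genes in all germline fractions. A pair of MTD loci outside genes were read in germline cells and were at or near 0 in somatic cells.
MTEa, chr9:99170793-99171006, 30171 bases upstream of Pik3cb: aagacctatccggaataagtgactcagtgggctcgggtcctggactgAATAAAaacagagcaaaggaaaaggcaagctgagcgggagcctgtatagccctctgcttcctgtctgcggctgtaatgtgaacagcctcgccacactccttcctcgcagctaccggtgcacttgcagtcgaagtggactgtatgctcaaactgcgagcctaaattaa
MTD, chr4:153085337-153085536, 60053 bases downstream of Gm13173: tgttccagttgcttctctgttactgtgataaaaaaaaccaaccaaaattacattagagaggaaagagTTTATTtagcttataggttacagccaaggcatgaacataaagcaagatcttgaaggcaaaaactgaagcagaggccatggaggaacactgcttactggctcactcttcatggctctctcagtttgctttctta
MTD, chr5:147744881-147745105, 410 bases upstream of Gm43156: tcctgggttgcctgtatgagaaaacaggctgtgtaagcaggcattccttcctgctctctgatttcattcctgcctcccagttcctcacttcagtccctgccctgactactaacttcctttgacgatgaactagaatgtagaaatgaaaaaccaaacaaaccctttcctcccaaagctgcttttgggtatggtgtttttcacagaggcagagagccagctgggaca

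The MTEa pair in an intron of Atf3 and the MTE2b locus in an intron of Lama2 passed the test between exposures in somatic cells. The MTEb pair in an intron of Sub1 had the highest DMSO mean of all members in each germline fraction, although not the highest value in every library.
MTEa, Atf3 intron, chr1:191173299-191173422: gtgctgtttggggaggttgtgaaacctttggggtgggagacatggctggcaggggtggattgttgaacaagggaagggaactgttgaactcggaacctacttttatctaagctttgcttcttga
MTEa, Atf3 intron, chr1:191173608-191173727: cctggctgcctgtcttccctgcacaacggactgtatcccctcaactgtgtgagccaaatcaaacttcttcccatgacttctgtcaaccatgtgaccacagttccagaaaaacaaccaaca
MTE2b, Lama2 intron, chr10:27244426-27244591: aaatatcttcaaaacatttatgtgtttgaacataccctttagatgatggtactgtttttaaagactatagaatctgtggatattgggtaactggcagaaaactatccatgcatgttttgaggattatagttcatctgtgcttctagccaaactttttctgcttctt
MTEb, Sub1 intron, chr15:11985744-11985965: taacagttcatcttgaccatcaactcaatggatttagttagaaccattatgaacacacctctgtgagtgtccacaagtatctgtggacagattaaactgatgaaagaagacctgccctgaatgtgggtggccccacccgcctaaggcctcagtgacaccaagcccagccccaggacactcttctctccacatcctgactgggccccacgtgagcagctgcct
MTEb, Sub1 intron, chr15:11985979-11986043: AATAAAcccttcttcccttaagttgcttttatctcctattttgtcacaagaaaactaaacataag

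The MTEa locus upstream of Pik3cb held 9 CpGs in 214 bases, a density reached by 94 of the 105848 members of at least 100 bases (0.0888%) and by 34 of 16839 such MTEa loci (0.202%). Over all members the density was 0.679 CpGs per 100 bases, against 0.344 in MTA, 0.463 in MTB and MTC, 0.53 in ORR1 and 0.876 over all LTR loci. A match to AATAAA on either strand was present in 31.5% of the 38145 members of 150 to 300 bases, compared with 46.3% of MTA, 31.0% of MTB and MTC, 20.3% of ORR1 and 27.0% of all LTR loci of that length. All 7 successive pieces of 30 bases of the MTEa locus occurred once in the genome.

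Deposited values were counts per 1000000 reads (CPM) after TMM scaling by the authors. Dividing each column by its smallest value above 0 gave whole reads for 100% of values, within 0.01, so that 1 read was worth 0.129 to 0.957 CPM. F1 germline libraries held 3835481 to 6304053 LTR reads and F1 P6 libraries 2824806 to 3830400. F3 P6 libraries held 4104928 to 7760769. Depth was uneven in F3 germline cells, from 246520 reads in P5 TBT library 5 to 8161548 in P5 DMSO library 3, and P4 TBT libraries 5 and 9 and P5 DMSO libraries 1 and 2 were also shallow, with 833449, 1187234, 2017404 and 1606422 reads. A read of P5 TBT library 5 was worth 0.957 CPM, less than its depth alone would give, so that its CPM understate its shares of LTR reads. Germline and somatic tables were scaled separately, hence levels of P6 stand beside those of P4 and P5 without a test.

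The sorted fractions were checked by LTR reads inside marker genes. Of 22 germ cell genes 15 held LTR loci, with 15200 to 23200 reads per 1000000 LTR reads (RPM) in F1 P4, 11900 to 20700 in F1 P5 and 39.5 to 79.1 in F1 P6. In F3 these were 3980 to 18700, 3080 to 16600 and 41.3 to 309. Sertoli cell genes gave 1260 to 1710 RPM in F1 P6, 10.4 to 95.5 in P4 and 30.8 to 188 in P5. Leydig cell genes gave 954 to 1400, 137 to 484 and 173 to 297, respectively. By the germ, Sertoli and Leydig cell lists, the germline and somatic labels held in every library, and F1 P5 overlapped with but reached higher than F1 P4 in Sertoli cell reads. Endothelial marker reads overlapped between the F1 fractions, at 67.6 to 103 RPM in P4, 77 to 202 in P5 and 56.3 to 199 in P6, as did macrophage reads of P5 (27.1 to 53.1) and P6 (48 to 115). In bulk libraries, a smaller number of cells of a type and less RNA per cell cannot be told apart.

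Members took a nearly constant share of LTR reads, from 12.13% to 14.25% over the 62 RNA libraries. MTD alone took 5.77% to 6.5%, MTEa 1.54% to 2.07%, MTE2a 1.2% to 1.94%, MTE2b 0.937% to 1.66% and MTEb 1.15% to 1.58%. The internal species each took less than these, from 0.397% to 0.551% for MTE-int down to 0.015% to 0.0563% for MTEb-int. By annotation (GENCODE vM21), 60% of members lie outside genes, 37.6% in introns and 2.42% overlap an exon, similar to 64.5%, 33% and 2.48% of all LTR loci.

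Reads were distributed differently. Among loci with a mean of at least the value of 5 reads, 12260 of 13331 in F1 P4 (92%), 15348 of 17140 in F1 P5 (89.5%) and 12064 of 12823 in F1 P6 (94.1%) were intronic, in 7154, 9000 and 7001 stretches of a gene that hold no annotated exon (exon-free stretches). Those outside genes were 274, 802 and 40. In F3, 731 of 11850 loci in P4 (6.17%), 1541 of 13879 in P5 (11.1%) and 79 of 15254 in P6 (0.518%) lay outside genes. As RPM per kilobase, members outside genes held 0.115 ± 0.00536 in F1-DMSO P4 (SD, n = 5), 0.249 ± 0.0486 in P5 (n = 4) and 0.0326 ± 0.00938 in P6 (n = 5). Intronic members held 10.3, 10.1 and 10.7 on the same scale. All LTR loci outside genes held 0.105, 0.233 and 0.0609, so that members were close to the LTR average in germline cells and below it in P6. In F1-DMSO P6 the related MTB and MTC (0.037) and ORR1 (0.0404) were also below that average, and MTA was at 0.06.

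The share of member reads that lay outside genes separated the fractions. It was 1.32% to 1.71% in F1 P4, 2.58% to 5.29% in F1 P5 and 0.224% to 0.837% in F1 P6, except for F1 P6 TBT libraries 7 and 8, both at 4.63%. In F3 it ranged from 1.45% to 8.57% in P4, 4.05% to 23.6% in P5 and 0.366% to 0.521% in P6. The highest F3 P5 values were those of the shallow libraries TBT 5 (23.6%), DMSO 2 (20.7%) and DMSO 1 (16.8%). Ranges of P4 and P5 did not overlap in F1 and overlapped in F3.

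Between exposures, none of 18 exact two-sided permutation tests, of 3 shares in 6 groups of libraries, passed after adjustment, and the smallest adjusted p was 0.143. That value belonged to 2 shares. One was the share of LTR reads outside genes that fell in members in F3 P5, 8.78% ± 0.338 in DMSO (n = 4) and 9.5% ± 0.286 in TBT (n = 5), with an unadjusted exact p = 0.00794, the smallest this design can give, so that a single F3 share could not pass alone. These groups did not overlap, at 8.31% to 9.02% in DMSO and 9.21% to 9.91% in TBT. The other was the percent of LTR reads in members in F3 P6, with a difference of 0.0438 percentage points and an unadjusted exact p = 0.0159. For F1 P6 the share of member reads outside genes was 0.439% ± 0.126 in DMSO (n = 5) and 1.74% ± 1.98 in TBT (n = 7), exact p = 0.196. Without TBT libraries 7 and 8 the TBT mean was 0.58% (exact p = 0.278).

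**Figure D1:**
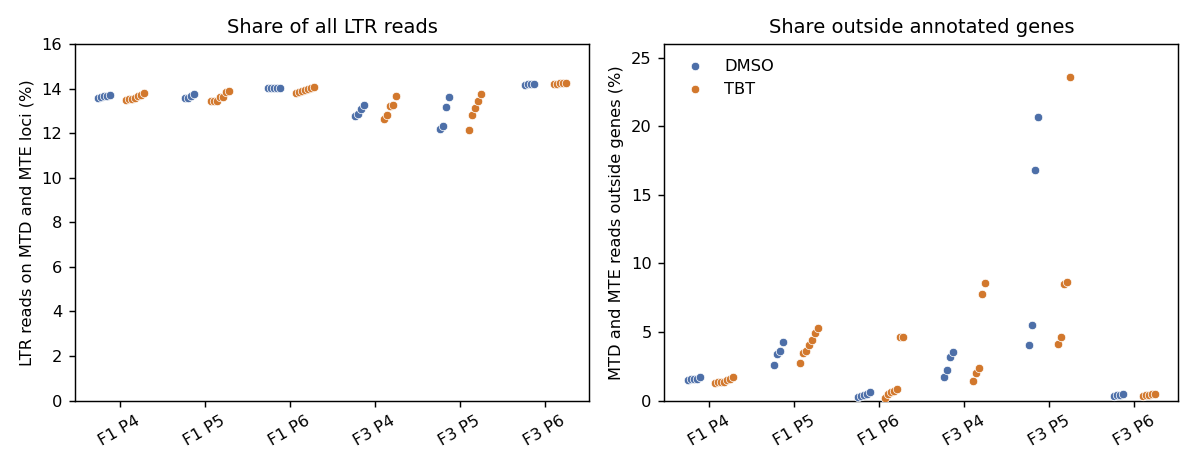
Percent of all LTR reads that fell on MTD and MTE loci (left) and percent of those member reads that lay outside annotated genes (right), per library, sorted from low to high within DMSO (blue) and TBT (orange) for each generation and fraction. The left share stays between 12.13% and 14.25%, whereas the right share is 0.224% to 0.837% in P6, except in F1 TBT libraries 7 and 8 at 4.63%, is higher in P5 than in P4 of F1, and reaches 23.6% in a shallow F3 P5 library.

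Intronic members shared their values with their neighbours. Adjacent LTR loci in the same exon-free stretch of a gene, with a member in the pair and a mean of at least 20 reads, had mean values within 0.1 log2 of each other in 99.4% of 5821 pairs in F1 P4, 96.8% of 6559 in F1 P5 and 99.2% of 5926 in F1 P6. In F3 these were 99% of 4620, 88.1% of 4602 and 96.6% of 9285. Identical values in every library were found for 77.8%, 31.7% and 38.3% of the F1 pairs. In the same gene but different exon-free stretches, 34.9% to 47% of pairs lay within 0.1 log2. For pairs outside genes it was 9.09% of 11 pairs in F1 P4, 14.3% of 21 in F1 P5 and 34.1% of 44 in F3 P5. Across intronic members the Spearman correlation of length with reads lay between -0.04 and -0.01 in the 6 fractions, a description over loci that share libraries and stretches. Hence counts of intronic loci repeat a measurement within a stretch, and stretches are given beside the main counts. Reads behind a shared value were not examined, and whether they begin inside the element was not tested.

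**Figure D2:**
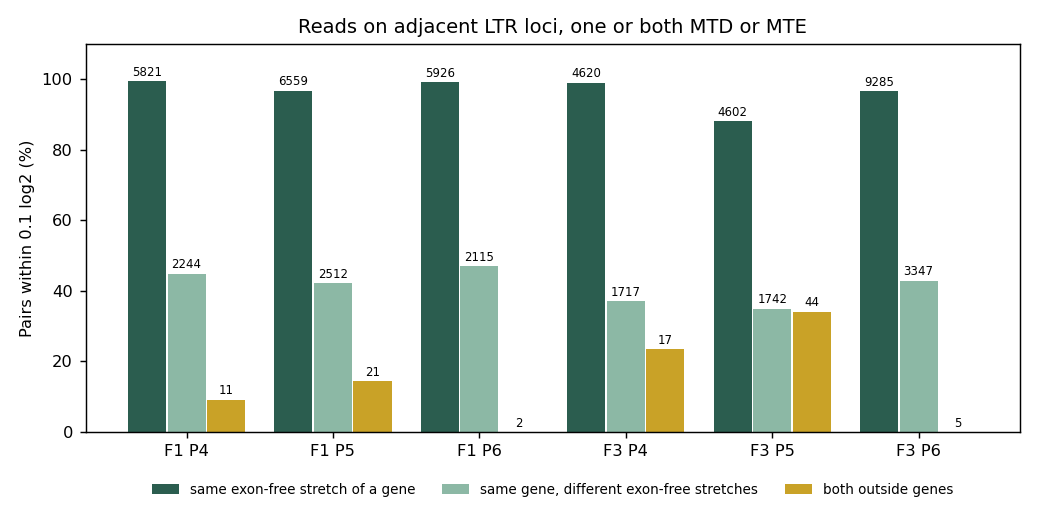
Percent of adjacent pairs of LTR loci, with one or both members, whose mean reads lay within 0.1 log2, by generation and fraction, with the number of pairs above each bar. Bars of pairs in the same exon-free stretch of a gene reach 88.1% to 99.4%, and pairs in different stretches of a gene 34.9% to 47%.

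Of the 3 members with the highest DMSO mean in each fraction, all were intronic or exonic except the MTEa locus upstream of Pik3cb in F3 P5, with a mean of 995 CPM over 9 libraries. The MTEb pair in an intron of Sub1, which encodes a transcriptional coactivator, averaged 885 CPM in F1 P4, 654 in F1 P5 and 326 in F1 P6, and 2040, 1110 and 244 in F3. Its P5 to P4 difference in F1 was -0.44 on the log2 scale (limma, FDR 0.00374). An MTD locus in an intron of Mael, a gene of the piRNA pathway, at chr1:166205342-166205502, averaged 680 CPM in F1 P4, 425 in P5 and 0.602 in P6, where the highest library reached 1.93. It was thus read in germline cells, and in F1 it fell from P4 to P5 by 0.68 on the log2 scale (FDR 7.72e-07). An MTD locus over an exon of Rpl34, a ribosomal protein gene, at chr3:130727149-130727452, averaged 361, 265 and 147 CPM in F1 and 1390, 716 and 98.1 in F3. Ribosomal protein genes have many near-identical copies, so this value is uncertain.

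Other high members were read most in somatic cells. An MTE2b and an MTE2a locus in Eno1, the glycolytic enolase, at chr4:150244406-150244578 and chr4:150244588-150244871, averaged 244 CPM in F1 P4, 178 in P5 and 368 in P6. An MTD locus in Laptm4a, a lysosomal membrane protein gene, at chr12:8927675-8927733, and another at chr12:8928172-8928349 averaged 20.3, 59.1 and 352 CPM, and between the germline fractions the first rose by 1.61 (SE 0.141) in P5. F3 means were 26.6, 80.1 and 289 CPM.

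Of the members outside genes, an MTE-int locus at chr8:68860769-68861283, 19207 bases upstream of Lpl, averaged 26.1 CPM in F1 P4, 19.2 in P5 and 0.197 in P6. The MTD locus on chromosome 4 shown above averaged 20.9 CPM in F1 P4 and 14 in P5 and was at 0 in 12 of 12 F1 P6 libraries. In F1 it fell from P4 to P5 by 0.57 on the log2 scale (FDR 0.00115). The MTD locus upstream of Gm43156 on chromosome 5 ran the other way, at 10.3 CPM in F1 P4, 21.1 in P5 and 0 in P6, with a log2 difference of 1.00 (SE 0.216, FDR 0.000423). In F3 they averaged 53.5, 29.7 and 0 CPM, and 8.15, 24 and 0.241. A somatic counterpart was an MTEa-int locus at chrX:168651560-168653078, 1038 bases downstream of Msl3, with 0.594, 2.07 and 22.4 CPM in F1 and 33.2 in F3 P6. In F3 germline cells it was at 0 in 7 of 9 P4 libraries and at 0.995 and 21 in the other two, and in P5 it had a median of 0.462, with 63 in DMSO library 2 and at most 8.51 in the others. An MTE2a locus 869 bases downstream of Zfp869, at chr8:69705089-69705462, was read in all fractions of F1, at 18.1, 20.6 and 26.7 CPM.

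Further members outside genes were among the 3 highest of an F3 fraction or of F1 P6. In F3 P4, an MTD locus at chr4:124202348-124202710, 75066 bases downstream of Gm37667, had 13.8 to 147 CPM with a median of 31.2, and an MTD locus at chr2:169133082-169133450, 22666 bases downstream of Gm14258, 0 to 69.9 with a median of 16.8. In F3 P5, an MTD locus at chr5:148680271-148680434, 31031 bases upstream of Gm36186, had 7.65 to 76.3 CPM, and an MTE-int locus at chr8:85433351-85433783, 27 bases downstream of 1700051O22Rik, 0 to 170. All of these but the Gm14258 locus, with reads in 1 of 9 libraries, were at 0 in F3 P6. Their spread over the F3 germline libraries was wide, with the highest value of each locus over 2 times its median. In P6, MTD loci 125 bases downstream of Tubgcp2 (chr7:139995437-139995829) and 630 bases upstream of Polr3k, an RNA polymerase III subunit gene (chr2:181863519-181863706), had means of 8.5 and 7.47 CPM in F3. The first was low in germline cells, with means of 0.24 to 0.968 CPM, and the second was read in F3 P4 and P5 as well, at 25.1 and 35.5.

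P5 and P4 were compared with limma on log2(value + the value of 1 read), with a fold change on that scale, over all LTR loci and with both exposures averaged. In F1, 2392 of 14594 tested members were higher in P5 and 2944 were lower at an FDR of 0.05 (16.4% and 20.2%), while of all 101401 loci tested 17.0% were higher and 20.3% lower. The split depended on scaling. The median of all loci was -0.11 with the deposited scaling and 0.03 when every library was given the same total, and the counts were then 2811 higher and 1610 lower. With median-ratio scaling they were 2809 and 1700, so that the share of higher among the called members went from 44.8% to 63.6% and 62.3%. Groups that did not overlap made up 300 of the higher members (2.06% of those tested, against 2.11% of all loci) and 107 of the lower members (0.733% against 0.753%).

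In F3 the same comparison called 52 of 13106 members higher and 2 lower (0.397% and 0.0153%), against 0.985% higher and 0.0112% lower over all loci. Non-overlapping groups were found for 3 higher members, 0.0229% of those tested, against 0.0918% of all loci. Without the 5 shallow libraries the counts were 535 higher and 202 lower. The F3 count also depended on the tool, since edgeR's quasi-likelihood test on the recovered reads called 588 members higher and 10 lower, and limma with array weights 1255 and 559. With the number shared by P4 and P5 libraries as a replicate block, more members were higher, also outside genes, as given in the closing section. Leaving out single libraries gave 17 (without P5 TBT 9) to 262 (without P5 TBT 5) higher members. It gave 18 to 33 without P4 DMSO 1, 2, 3 or 4, P4 TBT 5, 6, 7 or 8, or P5 TBT 6, 7 or 8.

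Among members with a mean of at least 20 units and groups that did not overlap, those that changed most between P4 and P5 of F1 lay in introns. A set of 3 MTD loci in Col5a1, a collagen V gene, at chr2:27937644-27938026, chr2:27944835-27945036 and chr2:27945177-27945432, ranged from 0.237 to 1.62 CPM in the 12 P4 libraries and from 4.78 to 18.6 in the 11 P5 libraries, a log2 difference of 3.11 (SE 0.25, FDR 9.57e-12). These groups did not overlap, and the first locus had 51 ± 7.18 CPM in F1-DMSO P6 (SD, n = 5). An MTD locus in 4932438A13Rik at chr3:36897186-36897492 had 0.985 to 4.39 CPM in P4 and 10.2 to 29.1 in P5, again without overlap (2.84, SE 0.225), and P6 libraries were at 1.19 to 4.93. With P4 means of 0.827 and 2.58 CPM and P5 means of at least 9.43, these loci reached the mean of 20 units mainly through P5, the fraction in which they were high, so that their selection and FDR are a description. Thus, the Col5a1 loci but not that in 4932438A13Rik were also high in somatic cells. Sertoli cell marker reads had a higher median in P5 as well, 54.1 RPM (30.8 to 188) against 23.9 in P4 (10.4 to 95.5). So had Leydig (272 against 193), interstitial (33.3 against 25.7), endothelial (132 against 78.9) and macrophage marker reads (37.9 against 24.5). Germ cell marker reads had a lower median in P5, 15100 against 18500. Ranges of P4 and P5 overlapped for each list, and the part of these cell types in the differences was not tested.

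Decreases were smaller. An MTD locus in Med15, a Mediator subunit gene, at chr16:17719803-17719943 was lower in P5, with 7.19 to 10.7 CPM in P4 and 3.04 to 6.87 in P5 (-0.95). An MTD locus in the overlapping genes Gm20388 and Klhdc4 at chr8:121818622-121818839 had 19.2 to 29.4 CPM in P4 and 10.5 to 18.7 in P5 (-0.85). In C3, the central complement gene, an MTE2b locus at chr17:57211856-57212178 had 30.3 to 45.2 CPM and 14.8 to 28.8 (-0.84). In Copb2, a COPI coatomer subunit gene, an MTD locus at chr9:98572857-98573206 had 107 to 180 CPM and 69.2 to 104 (-0.82). P4 and P5 libraries did not overlap at any of these 4 loci.

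Grouped by the host gene, members in transposon silencing and germ cell genes were mostly lower in P5 of F1. Over all LTR loci tested, 17.0% were higher and 20.3% lower. Of 31 tested members in 9 transposon silencing genes, which lay in 20 exon-free stretches, 23 were lower and 7 higher (median log2 difference -0.53, against -0.11 for all loci), and 17 and 7 with the other scalings. Of 40 members in 10 germ cell marker genes, in 26 stretches, 32 were lower and 8 higher, or 26 and 8. These lists share genes. Ddx4, an RNA helicase of germ cells, held 6 lower members (-0.57 to -0.44), and Morc1, which is required for transposon silencing, held 9 (-0.74 to -0.43). Tdrd1, a Tudor protein of the piRNA pathway, held 2 (-0.74 to -0.62), and Tdrd5, Tdrd9, Stk31 and Piwil2 also held lower members. Exceptions were Mov10l1, the piRNA helicase, with 7 higher members (1.74 to 1.96), and Kit, a receptor tyrosine kinase of germ cell precursors, with 1 (2.54, FDR 1.61e-07).

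Members in unfolded protein response genes went the other way, where 17.0% of all loci were higher and 20.3% lower with the deposited scaling. Of 13 tested, in 10 exon-free stretches, 11 in 4 genes were higher in P5 and none was lower under each of the 3 scalings (median log2 difference 1.09). These were 6 members in the endoplasmic reticulum stress sensor Atf6 (1.09 to 1.72), 2 in the sensor Ern1 (0.83 to 1.41), 1 in the kinase Eif2ak3 (0.67) and 2 in the co-chaperone gene Dnajc3 (0.61 to 0.62). The pair in Atf3 did not pass (0.43 to 0.44, FDR 0.399 to 0.402).

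For the remaining lists, too, the background was 17.0% of all loci higher and 20.3% lower, with a median log2 difference of -0.11. In the list of DNA methylation and heterochromatin genes 2 of 17 members, in 10 stretches, were higher, both in the histone methyltransferase gene Ehmt1. Another 3 were lower, in the de novo methyltransferase gene Dnmt3a and in Smchd1. The median log2 difference of this list was -0.12, near that of all loci. Of 20 members in nuclear receptor genes, in 11 stretches, 1 was higher, in the coactivator gene Ncoa1 (1.16). Among markers of other cell types, 2 of 2 Sertoli cell members, in Gata4, were higher (0.76), as was 1 of 3 endothelial members, in Pecam1 (1.27), and 0 of 4 Leydig cell members passed. No member in interstitial or macrophage genes reached the minimum. In F3 no member in any list passed with the deposited scaling.

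Outside genes, more members were higher than lower in P5. The minimum mean was taken over both fractions, and a locus could reach it through P5 alone. Within single fractions, 274 members outside genes reached the minimum in F1 P4 and 802 in F1 P5. The counts of higher and lower loci outside genes are therefore a description. In F1, 127 of 385 tested members outside genes were higher and 19 lower, compared with 42.8% higher of all LTR loci outside genes. The member share of 33% was below that background, as were the 36.7% of MTB and MTC loci and 39.4% of ORR1 loci, and 35 of 56 MTA loci (62.5%) were higher. Median log2 differences were 0.36 for members and 0.8 for all loci outside genes. In introns 2089 of 13352 members, in 1256 of 7814 exon-free stretches, were higher and 2777, in 1677 stretches, were lower (15.6% and 20.8%, against 15.6% and 21.3% of all intronic LTR loci). In F3, 21 of 1128 members outside genes were higher and none lower (1.86%, against 4.41% of all LTR loci outside genes). The F3 share was 2.55% for MTB and MTC, 2.8% for ORR1 and 0.676% for MTA, of which 1 of 148 loci was higher. The median log2 difference in F3 was 0.86 for MTD and MTE members outside genes, against 1.01 for all LTR loci there. The F3 count was 90 without P5 TBT 5 and 8 to 12 without P5 TBT 9, P4 DMSO 1, 3 or 4, or P4 TBT 7 or 8.

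Totals per species repeated this contrast. Over all of its loci, MTEb-int was higher in F1 P5 (0.26, SE 0.0388, FDR 6.24e-06), and MTD (-0.17, SE 0.0326), MTD-int (-0.26, SE 0.0425), MTE-int, MTE2a, MTE2b, MTEa and MTEb were lower by 0.10 to 0.26. Of all species totals 22.9% were higher and 41.0% lower. With the same total per library 5 member species were higher, led by MTEb-int (0.41) and MTE2b-int (0.19), and 3 were lower, MTD (-0.01), MTE-int (-0.05) and MTD-int (-0.11). The direction for MTEa thus turned from -0.10 to 0.05 with scaling. In F3 no member species passed with limma and the deposited scaling, while 2.72% of all species totals did. With the same total per library 3 passed, with array weights 5, and with edgeR's quasi-likelihood test or DESeq2 4.

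Summed over loci outside genes alone, 11 of 11 member species were higher in P5 in both generations. Of all species totals outside genes 93.7% were higher in F1 and 58.7% in F3. MTD outside genes had 914 ± 51.5 RPM in F1-DMSO P4 (SD, n = 5), 1980 ± 414 in P5 (n = 4) and 242 ± 74.8 in P6 (n = 5). Its log2 difference was 1.11 (SE 0.098, FDR 6.05e-12) in F1 and 1.19 (SE 0.384, FDR 0.00988) in F3. MTEa had 410 ± 12.2, 939 ± 166 and 82.7 ± 23.7 RPM. The size of the difference ran from 0.81 (SE 0.104) for MTE-int to 2.15 (SE 0.219) for MTE2a-int, which had 7.6 ± 2.81 RPM in P4, 31.6 ± 10.8 in P5 and 2.64 ± 2.12 in P6. F3 gave the same lowest and highest species, at 0.94 (SE 0.357, FDR 0.0244) and 2.72 (SE 0.788). When libraries were scaled to the same total of reads outside genes, 1 species was higher and 2 were lower in F1 and none passed in F3.

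**Figure D3:**
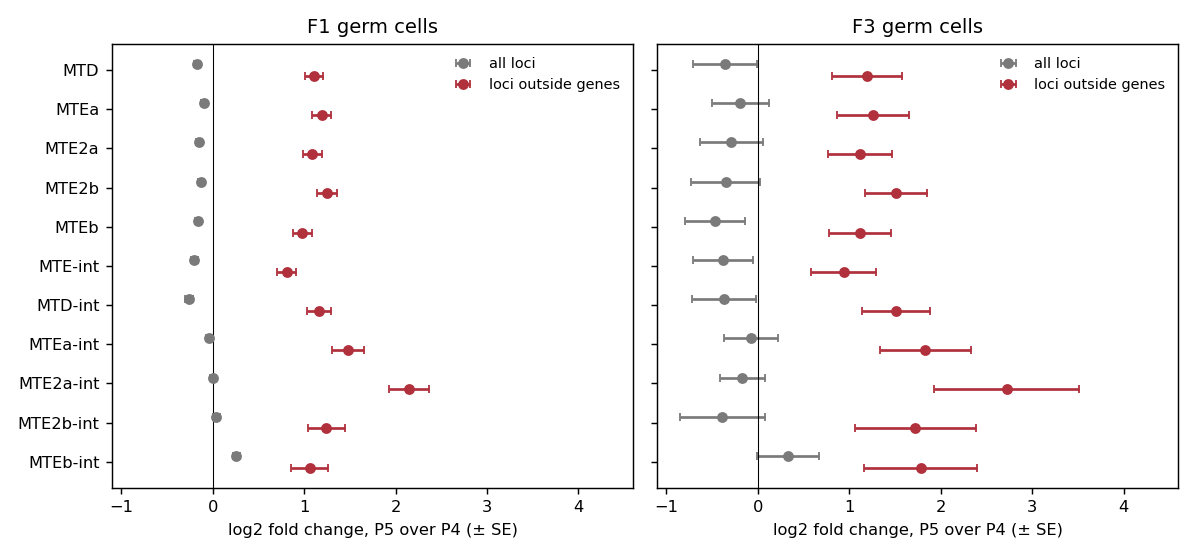
Log2 fold change of P5 over P4 with its SE for the total of each MTD and MTE species, over all loci (grey) and over loci outside genes (red), in F1 (left) and F3 (right). Red points lie between 0.81 and 2.15 in F1 and between 0.94 and 2.72 in F3, whereas grey points lie between -0.47 and 0.33.

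The MTEa locus upstream of Pik3cb, which encodes a catalytic subunit of phosphoinositide 3-kinase, was the highest member outside genes in P4 and P5 of both generations. In F1 P4 its values were 83.6, 76.9, 60.5, 66 and 59.9 CPM in DMSO, and 47.3 to 127 with a median of 59.7 in TBT. In F1 P5 they were 239, 172, 222 and 195 CPM in DMSO, and 161 to 552 with a median of 235 in TBT. Every P5 library was above every P4 library, at a log2 difference of 1.72 (SE 0.163, FDR 4.28e-10), or 1.87 with the same total per library.

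F3 libraries were more scattered at this locus, and their ranges overlapped those of F1 in both P4 and P5. P4 values were 356, 470, 51.2 and 142 CPM in DMSO and 413, 88.6, 143, 203 and 899 in TBT. P5 values were 2350, 977, 383 and 339 in DMSO and 712, 679, 258, 2330 and 924 in TBT. These CPM carry the scaling of each library, and their order need not be that of shares of LTR reads. The fractions overlapped, with a log2 difference of 1.80 (SE 0.458, FDR 0.0407), and 1.73 (FDR 0.048) without the shallow libraries. The F3 call was lost in 16 of 33 other settings, with an FDR of up to 0.555. F1 and F3 tables were scaled apart, so the generations were not tested against each other. In somatic cells the locus was at 0 to 2.04 CPM in F1, with 5 of 12 libraries at 0, and 0 to 4.96 in F3, with 4 of 9 at 0.

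The locus alone held 3.2% of the member reads outside genes in F1 P4, 5.12% in F1 P5, 5.47% in F3 P4 and 7.84% in F3 P5. Single libraries ranged from 2.41% to 5.12%, 3.4% to 8.05%, 1.87% to 10.3% and 4.54% to 14.8%. The next member outside genes had a mean of 26, 21.1, 53.5 and 41 CPM, respectively. Among all LTR loci outside genes it ranked 8 and 1 in F1 P4 and P5 and 4 and 1 in F3. Other LTR loci within 10000 bases, among them an MTEa fragment and MTE-int loci beside it, had means of at most 0.896 CPM in every fraction. No MBD window overlapped the locus. Its values did not pass the limma test between exposures in any of the 4 germline comparisons.

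**Figure D4:**
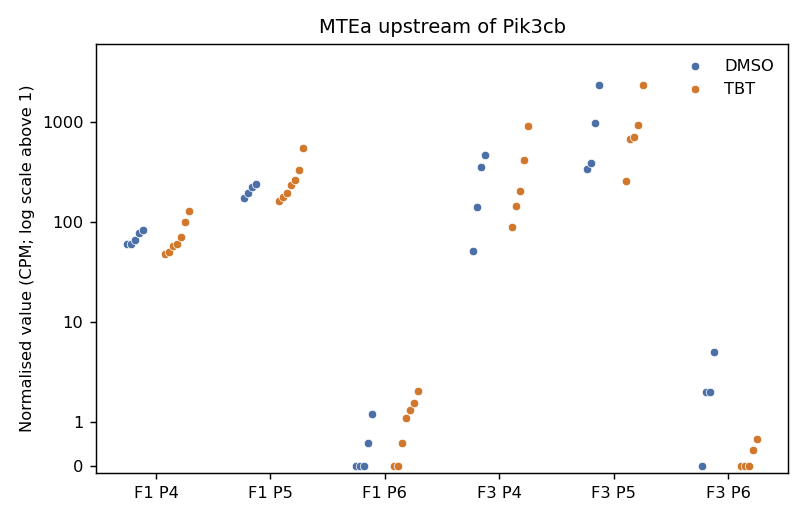
CPM of the MTEa locus upstream of Pik3cb per library, sorted from low to high within DMSO (blue) and TBT (orange), on an axis that is linear from 0 to 1 and logarithmic above. F1 P5 libraries at 161 to 552 lie above F1 P4 libraries at 47.3 to 127, and P6 libraries lie between 0 and 4.96; F1, F3 and P6 values were scaled separately.

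In all, 7 members outside genes were higher in P5 in both generations, 5.51% of the 127 in the F1 list. That share was not computed for all LTR loci outside genes. Of the 21 in the F3 list only 7 were tested in F1, and all 7 were higher there. Besides the locus upstream of Pik3cb, the members of this set of 7 were low in P4. They were at 0 in 6 or more of the 12 F1 and of the 9 F3 libraries. They reached the minimum mean mainly through P5, the fraction in which they were high, so that their number is a description. An MTE2a locus at chr4:4427269-4427627 was at 0 in 9 of 12 F1 P4 libraries and at most 1.03 CPM, and ranged from 0.953 to 7.59 in F1 P5 with a median of 3.96 (log2 difference 3.35, SE 0.405, FDR 7.31e-08). In F3 it was at 0 in 8 of 9 P4 libraries and ranged from 0.957 to 21.4 CPM in P5 (FDR 0.000886). All P6 libraries were at 0. An MTE2b locus at chr3:137847534-137847857 behaved likewise, with 0 to 4.93 CPM in F1 P4 and 1.01 to 9.4 in P5 (2.97), and in F3 with 8 of 9 P4 libraries at 0 and 0 to 44.3 CPM in P5 (FDR 0.00971).

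Further members of this set had F1 P5 medians between 2.63 and 3.58 CPM. An MTEa locus at chr4:93928199-93928417 had a read in 1 of 12 F1 P4 libraries and in none of the 9 of F3, and reached 7.6 CPM in F1 P5 and 17.2 in F3 P5 (FDR 7.95e-06 and 0.042). An MTD locus at chr6:50010502-50010857 ranged from 0 to 1.5 CPM in F1 P4 and 1.4 to 4.82 in P5 (3.08, SE 0.395), and from 0 to 3.91 and 0 to 40.2 in F3 (3.80, SE 0.907). An MTEa locus at chr6:29669431-29669490 had log2 differences of 2.47 and 4.37, and an MTD locus at chr2:127003279-127003695 one of 1.73 in F1, while in F3 it had a read in 1 of 9 P4 and 7 of 9 P5 libraries. With so many P4 libraries at 0 these differences depend on the value of 1 read that was added. As a description, of the 108 members outside genes that were higher in F1 P5 and tested in F3, 100 had a log2 difference above 0 there (92.6%), compared with 53.8% of all members outside genes tested in both generations.

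A transcript start of the annotation lay in 315 members, 123 of protein-coding and 192 of other genes. In F1, 81 of these were tested, and 20 were higher and 12 lower in P5, where 17.0% of all loci tested were higher and 20.3% lower. In F3 none of 86 passed, and over all loci 0.985% were higher and 0.0112% lower. Besides Rpl34, the highest were an MTEb locus at a start of Sec61a1, a subunit of the protein translocon, and an MTD locus at a start of Fdps, an enzyme of the isoprenoid pathway. The Sec61a1 locus, at chr6:88515943-88516283, had 54.6, 91.4 and 38.2 RPM in F1-DMSO P4, P5 and P6 and was higher in P5 (0.48, FDR 0.000284). The Fdps locus, at chr3:89095961-89096206, had 116, 86 and 73.4 and was lower (-0.52, FDR 4.97e-05). An MTE2b locus at the start of the lincRNA 1700019C18Rik, at chr13:35211876-35212310, had 23, 19.8 and 0. At a start of Me1, the cytosolic malic enzyme, an MTD locus at chr9:86687128-86687453 had 7, 10.6 and 72.1 RPM in F1 and 2.68, 2.71 and 67.2 in F3. These loci were named after their values were seen.

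TBT and DMSO were then compared within each fraction and generation. In germline cells no member passed an FDR of 0.05 with limma, although 3 did in F1 P5 without DMSO library 43-4 and 1 without DMSO library 43-5, 44-1 or 48-4. Without a filter on low values limma called 79 in F1 P5, and with array weights it called 2 in F3 P4 and 70 in F3 P5. In F1 P4 912 of 13331 members had an unadjusted p under 0.05 (6.84%, against 7.09% of all loci), in F1 P5 1086 of 17140 (6.34%, 6.89%), in F3 P4 155 of 11850 (1.31%, 1.65%) and in F3 P5 111 of 13879 (0.8%, 1.01%). Of all loci 0% passed in F1 P4, 0.0106% in F1 P5, 0% in F3 P4 and 0% in F3 P5. Other tools called few members, with the exception of F3 P5. edgeR's quasi-likelihood test called 0 in each of the 4 germline comparisons, edgeR's likelihood ratio test called 3, 26, 0 and 385, and DESeq2 called 1, 6, 1 and 0. F3 P5 holds the library of 246520 reads.

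The members with the smallest p in each direction are given for each germline comparison. In F1 P4 these were an MTEa locus in Elf2, an ETS-family transcription factor gene, at chr3:51257956-51258138 (1.00, FDR 0.582) and an MTEa locus in Igfbp7 at chr5:77372802-77372873 (-0.90, FDR 0.582). In F1 P5 an MTD locus at chr15:102019571-102019969, 8210 bases upstream of the keratin gene Krt18, was at 0 in 3 of 4 DMSO libraries and at 0.953 to 3.62 CPM in TBT (FDR 0.0704), and an MTE2a locus over an exon of Marc2 at chr1:184830269-184830495 had 6.22 to 8.78 CPM in DMSO and 2.3 to 5.56 in TBT (-0.98, FDR 0.323). In F3 P4 an MTD locus 2576 bases downstream of Gm14264, at chr2:170649521-170649857, was at 0 in 3 of 4 DMSO libraries and at 1.66 to 22.4 CPM in TBT, and an MTEb locus in the histone gene Hist1h2bc, at chr13:23689772-23689876, had 1.64 to 10.1 CPM in DMSO and 0 to 1.16 in TBT (both FDR 0.87). In F3 P5 an MTEa locus in Gm28078 at chr7:37124300-37124590 was at 0 in 3 of 4 DMSO libraries and at 3.69 to 66 CPM in TBT, and an MTD locus in Clstn2 at chr9:97964869-97965269 had 0.462 to 33.4 CPM in DMSO and 0 to 0.586 in TBT (both FDR 1). None of these 8 loci passed here. Under other settings the locus upstream of Krt18 passed in 4 of 22 (FDR down to 4.37e-05), that in Igfbp7 in 2 of 23, that downstream of Gm14264 in 2 of 21, that in Gm28078 in 2 of 20 and that in Clstn2 in 1 of 19.

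The median of all loci in F3 P4 was -0.69, that of members -0.71, and with the same total per library the median of all loci was -0.46. In the other comparisons the member median lay within 0.06 of that of all loci.

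In somatic cells of F1, 2 of 12823 members were higher in TBT, and 0.00341% of all loci were. Both were MTEa loci in an intron of Atf3, a stress-induced transcription factor gene, and the only other LTR locus called higher lay in the same exon-free stretch (log2 difference 2.36). The locus at chr1:191173299-191173422 had 5.2, 22.9, 3, 4.68 and 1.73 CPM in DMSO, and 17.9 to 36.8 with a median of 26.9 in TBT. The difference was 2.39 (SE 0.353, FDR 0.0122), and 2.40 for its neighbour at chr1:191173608-191173727. DMSO library 12 lay among the TBT libraries and the other 4 were below all of them.

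F1 P6 TBT libraries 7 and 8 stood apart. They held more reads outside genes (above) and germ cell marker reads of 76.2 to 79.1 RPM, against 54.2 to 73.1 in the other TBT libraries and 39.5 to 51.4 in DMSO. The part of germ cell RNA in the result was not tested. In F1 germline cells the Atf3 pair was at 0 to 4.77 CPM. Without both libraries the log2 differences were 2.35 and 2.36 (SE 0.4) with an FDR of 0.152, and no LTR locus was called. No member was called, either, without DMSO library 1, 2, 3 or 4 or TBT library 6, 7 or 9 alone. In F3 P6 the same locus had 35.9, 13.5, 30.8 and 30.3 CPM in DMSO and 24.4, 8.83, 11.7, 5.38 and 26.7 in TBT, overlapping groups with the higher mean in DMSO.

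In F3 somatic cells 6 of 15254 members, in introns of 2 genes, were higher in TBT and none was lower. Of all loci 0.0200% were higher and 0.0143% lower. The largest was an MTD locus in Erbb2, a receptor tyrosine kinase gene, at chr11:98430110-98430507. Its values were 7.14, 12.2, 8.19 and 13.8 CPM in DMSO and 27.2, 27.3, 18.6, 19 and 21.9 in TBT, without overlap (1.16, SE 0.181, FDR 0.0111).

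The other 5 lay in 3 exon-free stretches of Lama2, the laminin alpha-2 chain of basement membranes. The MTE2b locus at chr10:27244426-27244591 had 11.7, 15.3, 9.18 and 14.8 CPM in DMSO and 25.7, 23.3, 18.9, 26.9 and 22.5 in TBT (0.89, SE 0.156, FDR 0.0326). The MTE2b locus at chr10:27244639-27244719 and 2 more LTR loci of that stretch gave the same 0.89. An MTD locus at chr10:27034076-27034437 had 13.3, 14.4, 9.67 and 15 CPM in DMSO and 21.1, 23.4, 20.4, 25.2 and 21.6 in TBT (0.78, SE 0.144, FDR 0.0425). An MTE2b-int locus at chr10:27047861-27048485 had 13.3, 14.9, 11.9 and 21.3 CPM in DMSO and 25, 32.3, 25.1, 30.6 and 23.1 in TBT (0.84, SE 0.155, FDR 0.0421), and the MTE2b locus that follows it, at chr10:27048486-27048797, also gave 0.84. In all 3 stretches every TBT library was above every DMSO library. Leydig cell marker reads were 959 to 1080 RPM in F3-DMSO and 766 to 967 in F3-TBT, and endothelial marker reads were 101 to 150 in F3-DMSO and 142 to 179 in F3-TBT. Germ cell marker reads reached 309 in a DMSO library. Their part in these differences was not tested.

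F1 P6 libraries did not repeat these separations. The Erbb2 locus had 9.88 to 23.1 CPM in F1-DMSO and 8.48 to 24.1 in F1-TBT, and the first Lama2 locus 6.3 to 12.5 and 0.385 to 20.1. In germline cells the Erbb2 locus reached at most 3.94 CPM and the first Lama2 locus at most 0.841. Whether F1 and F3 effects differ was not tested. The Lama2 calls were near the threshold, at FDRs of 0.0326 to 0.0425, and were lost in 6 to 10 of 19 other settings. The number of members called was 0 without TBT library 6, 1 without DMSO library 1 or 3 or TBT library 5, 8 or 9, 3 without TBT library 7 and 21 without DMSO library 2.

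**Figure D5:**
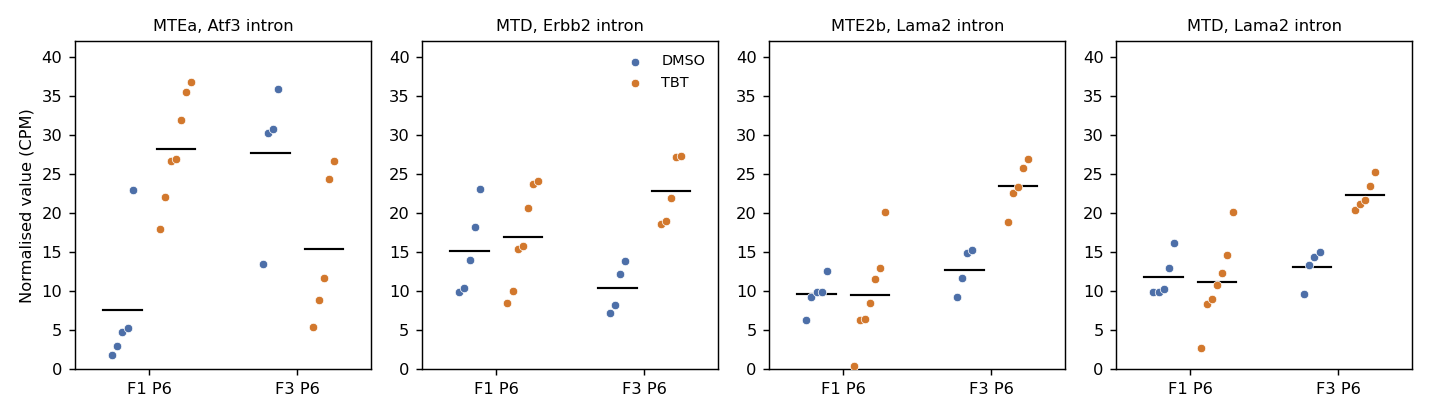
CPM in each P6 library, sorted from low to high within DMSO (blue) and TBT (orange), for the MTEa locus at chromosome 1 in Atf3, the MTD locus in Erbb2, and an MTE2b and an MTD locus in Lama2, with horizontal lines at the means. F1-TBT values of the Atf3 locus (17.9 to 36.8) overlap F1-DMSO only through the library at 22.9, and F3-TBT values of the Erbb2 and Lama2 loci lie above all F3-DMSO values.

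Among totals of the 11 member species none passed between exposures with limma in any of the 6 comparisons, where 0% of all species totals did, and DESeq2 called 1 in F3 P6. With limma, the deposited scaling and all loci of a species, only MTE-int and MTEb, both in F1 P4, had an unadjusted p under 0.05. Other settings gave others, such as MTE2b in F3 P6 with the same total per library (limma, unadjusted p = 0.00332, FDR 0.194). The difference of the exposure effect between P5 and P4 was also tested for each locus. No member passed in F1 or F3, where 0.000986% and 0% of all loci did. In F1 615 members had an unadjusted p under 0.05 (4.21%, against 4.32% of all loci) and in F3 188 (1.43%, against 1.39%).

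DNA methylation was read in P6 as counts in 100-base windows. Members took up 1821 of 154773 windows in F1 and 1918 of 164382 in F3 (1.18% and 1.17%), counting windows with at least 50 bases on a member. Libraries held 701493 to 1913353 counts in F1 and 1105120 to 1556376 in F3. The share of counts on members was 1.22% ± 0.01 in F1-DMSO (n = 3) and 1.2% ± 0.0208 in F1-TBT (n = 4), exact two-sided permutation p = 0.343. In F3 it was 1.19% ± 0.0249 (n = 5) and 1.17% ± 0.0335 (n = 7), exact p = 0.451.

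No member window differed between exposures with edgeR's quasi-likelihood test. Of 416 member windows tested in F1, 25 had an unadjusted p under 0.05 (6.01%, against 5.01% of all windows), and of 560 in F3, 35 (6.25%, against 5.19%). Over all windows 0.0318% passed in F1 and 0% in F3. The strongest F1 gain was in an MTD locus in an intron of Ubash3b at chr9:41129001-41129100, from 6.2 ± 2.23 to 11.7 ± 3.62 CPM (0.99, FDR 0.942), and the strongest loss in an MTD locus 5442 bases downstream of Osbpl3 at chr6:50287701-50287800, from 17.8 ± 2.61 to 10.4 ± 2.19 CPM (-0.79, FDR 0.937). For F3 these were an MTD window in 1700017G19Rik at chr3:40514501-40514600, from 15.2 ± 3.17 to 22.6 ± 4.61 CPM (0.57, FDR 0.914), and an MTE2b window in 5031425F14Rik at chr2:166451401-166451500, from 12.8 ± 2.4 to 6.78 ± 2.71 CPM (-0.84, FDR 0.8). The median per tested member window was 12.7 CPM in F1 and 11.8 in F3, and the smallest change that these windows could show was not estimated. Tested windows lay on 374 members in F1 and 494 in F3, of 122722. Of these windows 82 and 137 held no CpG, with medians of 12 and 10.2 CPM. Windows with 1 CpG had medians of 12.6 and 11.2 CPM, and those richest in CpGs 16 and 16.9. CpG-free windows took 28.5% to 36.8% of all counts per library, so this test says little about methylation of the members.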

How the data were processed

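RNA was measured by poly(A)-primed RNA-seq in 62 libraries of sorted fetal testis cells, and methylated DNA by MBD-seq in 19 libraries of P6 cells, 81 samples in all. Members and gene lists were chosen with earlier results of these data known. The submitters' processing notes name Trim Galore, STAR, edgeR and mm10, with versions not given in the sources used here. The authors counted reads on LTR entries of RepeatMasker with a modified ERVmap pipeline and deposited, per locus, a normalised signal in CPM after TMM scaling, separately for germline and somatic cells of each generation. These values are not counts as had been assumed, and carry no strand. The deposited MBD files hold raw counts per 100-base window. Samples were grouped by their titles.

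Values were divided by that of 1 read, which recovered whole reads, and intronic and other classes were set with GENCODE vM21. A unit is the median value of 1 read over the fitted libraries, and loci averaging 5 units or more were tested with limma 3.58.1 (trend) on log2(value + 1 unit), with Benjamini-Hochberg adjustment over all loci and an FDR of 0.05. P5 and P4 were compared with 4 group means. MBD windows were tested with edgeR 4.0.16 (quasi-likelihood, TMM, filterByExpr). Shares were compared by exact two-sided permutation tests. All steps ran in R 4.3.3 and were tested on simulated data. Alternatives were pseudocounts, filters, scalings, array weights, edgeR and DESeq2 1.42.0 on the recovered reads, replicate blocks and left-out libraries. Precision follows from the depth given above, and counting error is the least error.

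Named loci were the 3 higher and 3 lower calls of largest change per exposure comparison (or, with none, the smallest p each way), the 4 higher and 4 lower non-overlapping loci with a mean of 20 units in P5 against P4, and the 3 highest of each fraction, over all loci and outside genes. Also named were the members outside genes called in both generations and the strongest MBD windows. The 3 Lama2 loci beyond the third call, and loci at transcript starts, were chosen after their values were seen.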

Additional observations from a re-analysis of the deposited data

Results flagged for a closer look

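Within groups of 4 to 10 libraries, 51 sets of values were examined for a library far from the others, of which chance is expected to mark about 1 in 20, and 5 were marked. F1 P6 DMSO library 4 had 14.01% of its LTR reads in MTD and MTE loci, against 14.03% to 14.04% in the other 4. F3 P5 TBT library 5, the shallowest, had 23.6% of its member reads outside genes, against 4.1% to 8.66%. F1 P6 DMSO library 12 had 22.9 CPM at each of both MTEa loci in Atf3, where the other DMSO libraries had 1.73 to 4.94 and 1.73 to 5.2. F1 P5 TBT library 47-1 had 552 CPM at the MTEa locus upstream of Pik3cb, against 161 to 329 in the other 6.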

How the results depend on the processing

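In the F3 germline comparisons 5 libraries held 246520 to 2017404 LTR reads, and many members outside genes had low values. The sets of members called below are given as counts, and which loci made them up was not compared. Where a count moved, the cause was not tested.

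Between exposures, edgeR's likelihood ratio test called 3 members in F1 P4, 26 in F1 P5, 9 in F1 P6, 385 in F3 P5 and 37 in F3 P6, and DESeq2 called 1 in F1 P4, 6 in F1 P5, 1 in F3 P4, 20 in F3 P6 and 1 species total in F3 P6. Array weights gave 6 in F1 P6, 2 in F3 P4 and 70 in F3 P5. Without a filter 79 were called in F1 P5 and 12 in F3 P6. A pseudocount of 0.25 units gave 0 in F1 P6 and 3 in F3 P6, median-ratio scaling 3 in F3 P6, and F1 P6 without TBT libraries 7 and 8 gave 0. Leaving out each library in turn gave 0 to 0 in P4 of both generations and in F3 P5, 0 to 3 in F1 P5, 0 to 3 in F1 P6 and 0 to 21 in F3 P6. MBD windows on members stayed at 0 in every setting run, as did members in the exposure difference between P5 and P4.

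For F1 P5 against P4, lower members numbered 1610 with the same total per library, 1937 without a filter, 1700 with median-ratio scaling, 1909 with edgeR's quasi-likelihood test, 1669 with DESeq2 and 824 in DMSO libraries only. Higher members numbered 732 at a mean of 20 units or more and 871 in DMSO libraries only. Those outside genes numbered 12, 658 and 36 at a mean of 20 units or more, without a filter and in DMSO libraries only. Leaving out each library gave 2145 to 2423 higher, 2603 to 3077 lower and 95 to 131 outside genes, with 8 to 8 species totals and 11 to 11 outside genes.

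For F3, higher members numbered 85 with the same total per library, 10 at a mean of 20 units or more, 1255 with array weights, 18 without a filter, 117 with median-ratio scaling, 588 with edgeR's quasi-likelihood test, 851 with its likelihood ratio test, 732 with DESeq2, 0 in DMSO and 0 in TBT libraries only and 535 without the shallow libraries. Lower members numbered 559, 10, 30, 4 and 202 with array weights, quasi-likelihood, likelihood ratio, DESeq2 and without the shallow libraries, and 0 with a pseudocount of 0.25, a mean of 20 units or more, no filter or TBT libraries only. Members outside genes numbered 32, 4, 232, 8, 37, 260, 327 and 189 in the order of the first 8 settings, 106 when loci outside genes were fitted alone, 0 in either exposure only and 89 without the shallow libraries. Species totals called were 3 with the same total, 5 with array weights, 4 with quasi-likelihood or DESeq2, 11 with loci outside genes only and 1 without the shallow libraries. Leaving out each library gave 17 to 262 higher, 0 to 4 lower, 8 to 90 outside genes, 0 to 0 species totals and 9 to 11 outside genes. Species totals outside genes that were higher numbered 1 in F1 and 0 in F3 with the same total of reads outside genes, and 7 and 2 in F3 in DMSO and TBT libraries only.

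P4 and P5 libraries share numbers in the labels, which do not say that these mark an animal. Deviations of same-numbered libraries correlated at -0.012 to 0.499 over 11 pairs in F1 (median 0.272, 7 over 0.1), with 5 best matched by their own number. In F3 it was -0.202 to 0.584 over 9 pairs (median 0.38, 7 over 0.1), with 2. The pairing was not taken as given and was run as an alternative. With the number as a replicate block, 2523 members were higher and 3613 lower in F1, 127 of the higher outside genes, with 8 species totals and 11 outside genes. In F3 145 were higher, 49 of them outside genes, and 4 lower, with 0 and 11 species totals, and the exposure difference between P5 and P4 stayed at 0 in both.

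Alternatives on the members outside genes alone, on species totals outside genes and without the libraries that stood apart were chosen after seeing the data. None of the loci named for exposure or for the largest differences between P5 and P4 in F1, nor the locus upstream of Pik3cb, changed direction under any setting run, and the other named loci were not run. The Atf3 loci lost significance in 9 of 22 settings (FDR up to 0.435) and the Erbb2 locus in 1 of 19 (FDR up to 0.0811). The Lama2 loci lost it in 6 to 10 of 19 (FDR up to 0.229). The MTEa locus upstream of Pik3cb passed in 37 of 37 settings in F1 and lost significance in 16 of 33 in F3.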
